A study of Mus musculus with 12 samples.

Results

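MHC class II and dendritic cell genes were followed by bulk RNA sequencing of mouse eWAT, the epididymal fat pad of the abdomen, over the week that follows liver resection. The set holds 10 genes chosen by symbol: Cd74, H2-Aa, H2-Ab1, H2-Eb1, Ciita, Batf3, Zbtb46, Flt3, Siglech and Irf8. All 10 were found among the 22151 genes of the deposited table and all 10 had values in every library and passed the filter on low counts. The groups were C57BL/6 mice (labelled C57bl6, and C57BL6/J in the series design) of 12 to 14 weeks, all labelled male. The sex-linked genes of day 3 library 1, given below, went against that label. The sham group held 4 mice with a laparotomy and no resection. The mice with partial hepatectomy (PHx) had lost 70% of the liver and formed a day 3 group of 5 and a day 7 group of 3. The labels name no transgene and no drug, and they give no sampling day for the sham mice, whose source field places them before hepatectomy. Each library is labelled as 1 sample of bulk tissue, and the labels do not state whether animals were pooled. The p-values therefore measure the spread between these samples. Levels are CPM, each gene's count scaled to a common library size, with library sizes adjusted by the trimmed mean of M values. Differences were tested with edgeR's quasi-likelihood test, and an adjusted p is its Benjamini-Hochberg p over all genes tested, with a threshold of 0.05. The labels do not state whether the libraries keep strand, so reads of overlapping genes on opposite strands cannot be told apart.

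MHC class II molecules show peptides from engulfed proteins to CD4 T cells. An alpha chain and a beta chain pair in the endoplasmic reticulum with the invariant chain, which fills the groove and leads the complex to endosomes, where proteases cut it away and the H2-DM chaperone exchanges its last fragment for a peptide. The coactivator Ciita switches these genes on together by docking on factors bound to the X and Y boxes of their promoters. B cells, dendritic cells and activated macrophages are the classic class II cells, and fat depots hold all of these, with B cells also gathered in small lymphoid clusters. Mice with the C57BL/6 haplotype do not express the E alpha chain, so their H2-Eb1 product has no usual partner.

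Letters of the X and Y boxes were looked for in the promoters of the class II genes. RefSeq promoter windows (GRCm38.p6, 250 bases before to 50 bases after a gene start) were searched on both strands for the Y box letters TGATTGG and for ATGATGC or TGACGTC, letters of the X2 part of the X box. These letters were chosen with the sequences in view. In H2-Aa the letters TGACGTC also matched on the other strand, overlapping the match shown. The windows of H2-Aa (minus strand) and H2-Eb1 (plus strand) are shown whole, with both matches in capitals, because they are the 2 class II chain genes of the set that the table holds.

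H2-Aa, chr17:34287774-34288073: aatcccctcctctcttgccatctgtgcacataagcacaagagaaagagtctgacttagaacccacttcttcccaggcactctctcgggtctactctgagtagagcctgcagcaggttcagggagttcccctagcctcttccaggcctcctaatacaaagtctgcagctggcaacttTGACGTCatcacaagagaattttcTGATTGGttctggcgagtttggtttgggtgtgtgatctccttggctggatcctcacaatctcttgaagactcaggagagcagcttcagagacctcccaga
H2-Eb1, chr17:34305617-34305916: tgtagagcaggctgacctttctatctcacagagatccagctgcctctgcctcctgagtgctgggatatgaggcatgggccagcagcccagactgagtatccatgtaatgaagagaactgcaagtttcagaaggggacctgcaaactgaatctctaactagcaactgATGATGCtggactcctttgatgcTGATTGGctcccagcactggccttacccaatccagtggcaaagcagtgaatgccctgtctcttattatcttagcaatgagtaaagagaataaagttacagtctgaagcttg

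The peptide loading genes H2-DMb1, H2-DMb2 and H2-Ob, outside the set and on the plus strand of the same chromosome, hold ATGATGC and TGATTGG, the pair of H2-Eb1. They are shown from 20 bases before the first match to 10 bases after the second.

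H2-DMb1, chr17:34153084-34153144: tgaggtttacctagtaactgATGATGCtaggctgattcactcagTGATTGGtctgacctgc
H2-DMb2, chr17:34145113-34145173: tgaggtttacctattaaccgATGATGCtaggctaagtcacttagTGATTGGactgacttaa
H2-Ob, chr17:34238805-34238862: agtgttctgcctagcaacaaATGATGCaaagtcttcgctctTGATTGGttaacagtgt

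Between the X2 and Y letters lay 17 bases in H2-Aa, H2-DMb1 and H2-DMb2, 16 in H2-Eb1 and 14 in H2-Ob. An X2 match followed by TGATTGG within 40 bases was present in 24 of 32851 promoter windows of the same length (0.0731%), and TGATTGG alone in 7.82%. ATGATGC alone was in 2.46% and TGACGTC alone in 3.21%. The windows of Batf3, Flt3, Siglech and H2-DMa held none of these letters, that of Zbtb46 held X2 letters without TGATTGG, and 1 of the 2 windows of Irf8 held TGATTGG without X2 letters. Those of H2-Oa and H2-Eb2, a loading gene and a class II chain gene without values per library, held TGATTGG and no X2 letters. Cd74, H2-Ab1 and Ciita had no window to search. A match is a description of letters and not evidence of binding in these samples.

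Library totals ran from 13128853 to 23474246 counts. Several libraries stood apart before any comparison was made. Across genes, which are not independent replicates, the mean Pearson correlation of day 3 library 5 was 0.894 with its own group and 0.926 with sham. It correlated best with day 7 library 2 (0.957), and the best match of day 7 library 1 was day 3 library 2 (0.936). Sham library 4 held 2315 CPM of the hepatocyte gene Alb, against 5.99 CPM or less in sham libraries 1 to 3. Day 7 library 2 held 192 CPM of Alb, and the other PHx libraries held 1.53 to 24.6 CPM. Day 3 library 1 held 359 CPM of Xist and 0.643 CPM of the Y-linked Ddx3y, against its label as male. Fat was present in all libraries, with 328 to 4331 CPM of the adipocyte gene Adipoq. Defining dendritic cell genes were scarce. Xcr1 and Ccl22 had no values per library, Ccr7 and Ccl17 were too low to test, and Clec9a, a receptor of type 1 conventional dendritic cells, stood at 0.858 to 4.45 CPM.

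The class II genes were lower than every sham library in day 3 libraries 1 to 4 and at the sham level in day 3 library 5. None passed the test between day 3 and sham over 17012 genes, nor did any other member. The share of all genes that passed by edgeR was 0.00588% (1 gene, lower at day 3). DESeq2 called more genes, and its count is given in the last paragraph. Of the 10 members, 8 had negative log2 differences, where 51.7% of all genes did, and their median was -1.61 where that of all genes was -0.02. The members were chosen with earlier results of these data known, so this count is a description.

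Cd74 (ENSMUSG00000024610, chromosome 18 from 60936920 to 60945725, plus strand, mm39) encodes the invariant chain. It stood at 284, 131, 399 and 527 CPM in sham libraries 1 to 4 and at 68.0, 24.8, 31.2, 40.1 and 363 CPM in day 3 libraries 1 to 5. The first 4 day 3 libraries lay below the whole sham group and the fifth lay inside it, so the groups overlapped. The sham mean was 335 ± 169 CPM (SD, n = 4). That of day 3 was 105.5 ± 145 CPM (SD, n = 5). The log2 difference between them was -1.67 (SE 0.817, edgeR adjusted p = 0.47). Without day 3 library 5 it was -3.06 (SE 0.627, edgeR adjusted p = 0.118).

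H2-Aa (ENSMUSG00000036594, chromosome 17 from 34501718 to 34506798, minus strand, mm39) encodes the A alpha chain. Its sham levels were 109.6, 56.6, 163 and 231 CPM, and its day 3 levels were 32.3, 11.99, 16.4, 17.3 and 174 CPM. The same 4 day 3 libraries were low and the same 1 was at the sham level. The log2 difference was -1.47 (SE 0.832, edgeR adjusted p = 0.521), and -2.88 without day 3 library 5 (edgeR adjusted p = 0.118).

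H2-Ab1 (ENSMUSG00000073421, chromosome 17 from 34476663 to 34488394, plus strand) encodes the A beta chain that pairs with it. It stood at 122, 43.6, 120 and 175 CPM in sham and at 22.4, 8.99, 10.9, 14.4 and 140.2 CPM at day 3. Its log2 difference was -1.55 (SE 0.823, edgeR adjusted p = 0.498), and -3.05 without day 3 library 5 (edgeR adjusted p = 0.118).

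H2-Eb1 (ENSMUSG00000060586, chromosome 17 from 34524841 to 34535649, plus strand) encodes the E beta chain. It stood at 109.8, 46.7, 160.3 and 182 CPM in sham and at 21.0, 4.65, 6.58, 14.96 and 124 CPM at day 3. Here too only day 3 library 5 reached the sham range. The log2 difference was -1.86 (SE 0.925, edgeR adjusted p = 0.476), and -3.43 without day 3 library 5 (edgeR adjusted p = 0.118).

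Ciita (ENSMUSG00000022504, chromosome 16 from 10297923 to 10346283, plus strand) encodes the coactivator itself. It stood at 11.3, 2.75, 4.55 and 13.6 CPM in sham and at 0.929, 0, 0, 0.528 and 8.29 CPM at day 3. Day 3 libraries 2 and 3 held 0 counts of Ciita, which allows up to 0.184 and 0.224 CPM (3 counts in each library), and libraries 1 and 4 held 13 and 9 counts. These limits cover counting error only. The order of the libraries was close to that of Cd74, with day 3 library 5 again at the sham level. The log2 difference was -2.04 (SE 1.41, edgeR adjusted p = 0.593), and -4.47 without day 3 library 5 (edgeR adjusted p = 0.154).

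Leaving out day 3 library 5 raised the share of all genes with an unadjusted p under 0.05 from 10.9% to 18.5%, and the members with such a p from 2 (Batf3 and Zbtb46) to 6 of 10. Library 5 was singled out for its high class II levels, so lower p-values of class II genes without it follow from that choice and support nothing. By edgeR 0 genes passed the adjusted threshold without that library. Other omissions brought the day 3 differences nearer 0. Without sham library 4, the highest sham library in each class II gene, they were -1.35 for Cd74, -1.11 for H2-Aa, -1.26 for H2-Ab1 and -1.64 for Ciita. Without day 3 library 2 that of H2-Eb1 was -1.57. Over all 22 alternatives the values nearest 0 were -1.22 for Cd74, -0.98 for H2-Aa, -1.11 for H2-Ab1, -1.47 for H2-Eb1 and -1.46 for Ciita. In bulk tissue, fewer cells of a type and less RNA per cell cannot be told apart, which holds for each level given here.

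**Figure D1:**
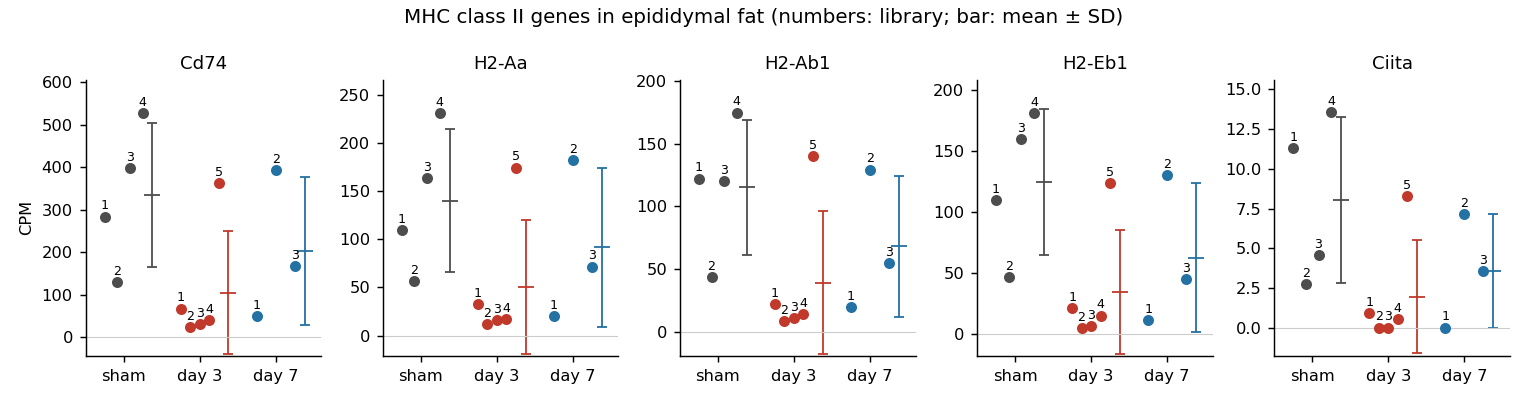
Levels of Cd74, H2-Aa, H2-Ab1, H2-Eb1 and Ciita (CPM, linear axis from below 0 to hold the bars) in each library of the sham, day 3 and day 7 groups. Numbers are libraries and bars are mean ± SD. Day 3 libraries 1 to 4 and day 7 library 1 lie below all sham libraries in the 5 panels, and day 3 library 5 (363 CPM of Cd74) lies among them.

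At day 7 the class II genes spread over the range between the low day 3 libraries and sham. Cd74 stood at 50.7, 394 and 169 CPM in day 7 libraries 1 to 3. H2-Aa stood at 20.3, 182 and 71.5 CPM, H2-Ab1 at 19.98, 129 and 55.2 CPM, H2-Eb1 at 11.7, 130.5 and 45.2 CPM, and Ciita at 0, 7.14 and 3.54 CPM. In each gene library 1 lay below every sham library and library 2 inside the sham range. Library 3 lay inside the sham range for Cd74, H2-Aa, H2-Ab1 and Ciita and just below the lowest sham library for H2-Eb1.

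No member passed the test between day 7 and sham, where 0% of all genes did (0 of 17012 by edgeR, with 6.26% of genes at an unadjusted p under 0.05, and 68 called by DESeq2 and 15 by voom). The log2 differences were -0.72 (SE 0.939) for Cd74, -0.62 for H2-Aa, -0.76 for H2-Ab1, -0.996 for H2-Eb1 and -1.18 for Ciita, with edgeR adjusted p from 0.917 to 0.955. Without day 7 library 2 that of Cd74 was -1.61 and that of H2-Eb1 -2.13; without day 7 library 1 that of Cd74 was -0.22. Of the 10 members 9 were negative, where 49.3% of all genes were, with a median of -0.67 against 0.01. The comparisons of day 3 and of day 7 share the sham libraries.

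Day 7 against day 3 tests whether the days differ, and 0% of all genes passed (0 of 17012 by edgeR, with 3.34% at an unadjusted p under 0.05, and 22 called by DESeq2 and 2 by voom). The log2 difference of Cd74 was 0.95 (SE 0.868, edgeR adjusted p = 0.999), and those of H2-Aa, H2-Ab1, H2-Eb1 and Ciita were 0.86, 0.79, 0.87 and 0.87. Without day 7 library 2 that of Cd74 was 0.057, and without day 3 library 5 it was 2.37. Without day 7 library 2 the other 4 turned to -0.13, -0.067, -0.27 and -0.14, and without day 3 library 5 they were 2.28, 2.32, 2.46 and 3.32. Of the 10 members 2 were negative, where 47.2% of all genes were. A difference between the days was not shown, and a lack of one was not shown either.

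The ratio of the A chains to the invariant chain varied less than Cd74 itself, which ranged 21.3-fold over the 12 libraries. H2-Aa counts were 38.6% to 52.5% of Cd74 counts, a range of 1.36-fold, and H2-Ab1 counts were 30.1% to 42.9%, a range of 1.43-fold. H2-Eb1 counts ranged from 18.8% to 40.2% (2.14-fold). The 3 lowest were 18.8%, 21.1% and 22.98% in day 3 libraries 2 and 3 and day 7 library 1, the libraries with 0 counts of Ciita, where H2-Eb1 had 76, 88 and 185 counts. Gene length cancels in these comparisons between libraries, and no test was made of them.

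**Figure D2:**
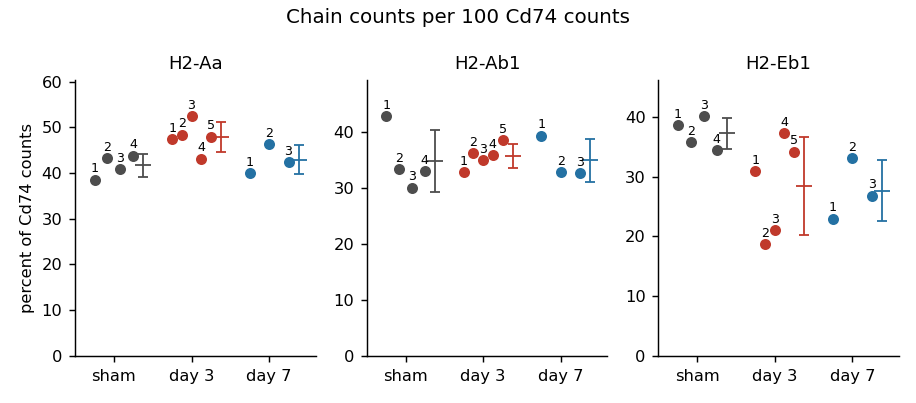
Counts of H2-Aa, H2-Ab1 and H2-Eb1 as a percentage of Cd74 counts in each library (numbers are libraries, bars are mean ± SD). H2-Aa stays between 38.6% and 52.5% and H2-Ab1 between 30.1% and 42.9%, and H2-Eb1 is lowest, at 18.8%, in day 3 library 2.

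The dendritic cell members did not share 1 pattern. Batf3 (ENSMUSG00000026630, chromosome 1 from 190830044 to 190841143, plus strand), a transcription factor that type 1 conventional dendritic cells need, stood at 5.81, 1.61, 2.63 and 3.77 CPM in sham. At day 3 it stood at 1.36, 1.28, 0, 0.352 and 1.26 CPM, below every sham library, library 5 included. Groups that did not overlap, with day 3 the lower, were found for 2.14% of all genes, and for 2 of 10 members. The opposite was found for 1.58% of all genes and for 0 members. Batf3 had 31 to 153 counts in sham and 0 to 21 at day 3, and its log2 difference was -2.01 (SE 0.827, edgeR adjusted p = 0.426). At day 7 it stood at 4.73, 1.85 and 1.903 CPM, inside the sham range and above every day 3 library (log2 difference between the days 1.72, SE 0.875, edgeR adjusted p = 0.999). Day 7 libraries all above day 3 were found for 1.35% of all genes and all below for 1.37%.

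Zbtb46 (ENSMUSG00000027583, chromosome 2 from 181029555 to 181101220, minus strand), a factor of conventional dendritic cells that endothelial cells also express, was the other member without overlap. Its sham levels were 27.5, 28.7, 27.8 and 27.4 CPM, a narrow range, and its day 3 levels were 14.7, 27.2, 19.7, 20.4 and 17.04 CPM. Day 3 library 2 lay just below the lowest sham library. The log2 difference was -0.49 (SE 0.211, edgeR adjusted p = 0.441). At day 7 it stood at 19.9, 21.8 and 13.3 CPM, again below sham, with a log2 difference of -0.61 (SE 0.244, edgeR adjusted p = 0.768). Day 7 libraries all below sham were found for 4.07% of all genes and for 1 of 10 members, and all above sham for 2.83% and for 0 members.

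Irf8 (ENSMUSG00000041515, chromosome 8 from 121463097 to 121483434, plus strand), a factor of type 1 and plasmacytoid dendritic cells that macrophages and B cells also use, had positive log2 differences. It stood at 32.5, 21.4, 9.397 and 16.7 CPM in sham, at 34.3, 26.1, 35.2, 24.8 and 11.9 CPM at day 3, and at 42.2, 15.6 and 60.2 CPM at day 7. Day 3 library 5 and day 7 library 2, high in class II, were the lowest of their groups in Irf8. The log2 differences were 0.40 (SE 0.432, edgeR adjusted p = 0.75) at day 3 and 0.97 (SE 0.484, edgeR adjusted p = 0.826) at day 7.

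Siglech (ENSMUSG00000051504, chromosome 7 from 55417926 to 55428674, plus strand), a lectin of plasmacytoid dendritic cells, stood at 1.33, 0.621, 3.47 and 6.81 CPM in sham. At day 3 it held 1.501 and 0.464 CPM in libraries 1 and 5 and 0 counts in libraries 2, 3 and 4, where 3 counts would be 0.184, 0.224 and 0.176 CPM. Day 7 library 1 also held 0 counts, and libraries 2 and 3 held 3.31 and 2.04 CPM. The log2 difference was -2.95 at day 3 (SE 1.47, edgeR adjusted p = 0.475) and -0.78 at day 7 (SE 1.61, edgeR adjusted p = 0.965).

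Flt3 (ENSMUSG00000042817, chromosome 5 from 147267551 to 147337300, minus strand), the receptor for the main growth factor of dendritic cells, was near the detection limit. Its sham levels were 2.70, 0.259, 0.299 and 0.155 CPM. Those of day 3 were 0, 0, 4.63, 0.528 and 1.46 CPM, and those of day 7 were 0, 0.595 and 1.77 CPM. Single libraries carried its level, sham library 1 with 71 counts and day 3 library 3 with 62. Its log2 difference was 0.61 at day 3 (SE 1.53, edgeR adjusted p = 0.902) and -0.79 without day 3 library 3.

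**Figure D3:**
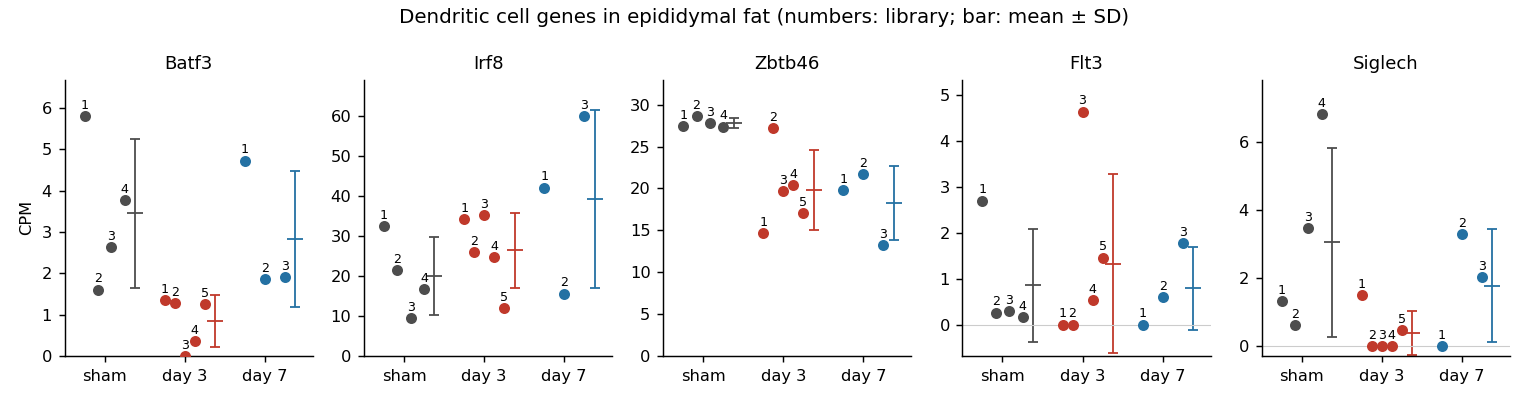
Levels of Batf3, Irf8, Zbtb46, Flt3 and Siglech (CPM, linear axes) in each library, with numbers for libraries and bars for mean ± SD. Batf3 and Zbtb46 lie below all sham libraries in the 5 day 3 libraries, and Irf8 does not.

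**Figure D4:**
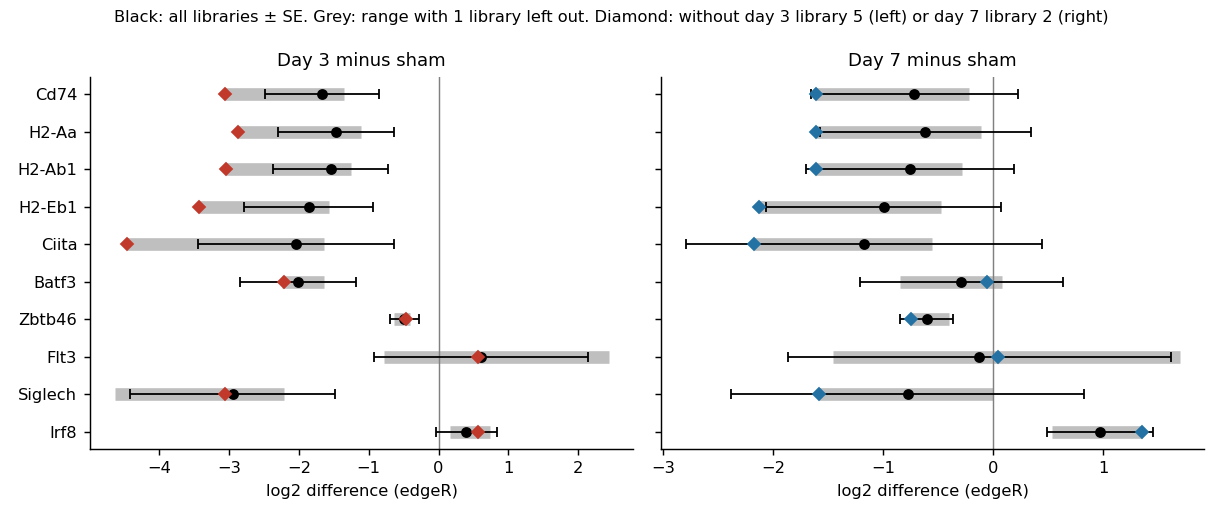
The log2 difference of each member against sham at day 3 (left) and day 7 (right) from edgeR, with its SE (black), its range when 1 library at a time is left out (grey) and the value without day 3 library 5 or day 7 library 2 (diamonds). At day 3 the 4 class II genes and Ciita sit near -3 or below without library 5, and Flt3 spans 0.

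The authors' deposited table has its own test of the same contrasts. The authors' deposited table lists log2 ratios at day 3 of -1.67 for Cd74, -1.86 for H2-Eb1, -2.02 for Batf3 and -2.98 for Siglech, with step-up false discovery rates of 0.456, 0.482, 0.238 and 0.414. In the authors' deposited table the lowest rate of any member at day 7 is 0.715, for Zbtb46.

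The genes that load peptide took different directions. Of 11 tested loading and processing genes, Cd74 included, 5 had negative and 6 positive log2 differences at day 3, a median difference of 0.15, and 0 passed in either direction. H2-Ob, the beta chain of the H2-O inhibitor of H2-DM, typical of B cells, stood at 6.08, 0.829, 3.05 and 3.56 CPM in sham and 0.429, 0, 0, 0.176 and 1.39 CPM at day 3. Its log2 difference was -3.06 (SE 1.14, edgeR adjusted p = 0.412). H2-DMb2 and H2-DMb1, beta chains of H2-DM, had log2 differences of -2.59 and -0.98 (edgeR adjusted p = 0.459 and 0.452). H2-DMb1 and H2-DMb2 are close paralogs, so the split of reads between them is uncertain.

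Endosomal proteases had positive differences. Ctsl, cathepsin L, stood at 607, 563, 297 and 352 CPM in sham, at 858, 1069, 965, 833 and 418 CPM at day 3, and at 1441, 353 and 1395 CPM at day 7. Ctss, cathepsin S, which cuts the invariant chain in dendritic and B cells and is given here with its values seen, stood at 155, 156, 46.9 and 63.9 CPM in sham and 203, 327, 318, 227 and 43.6 CPM at day 3. For both proteases day 3 libraries 1 to 4 exceeded every sham library and library 5 did not. The log2 differences at day 3 were 0.87 (SE 0.411, edgeR adjusted p = 0.464) and 1.08 (SE 0.627, edgeR adjusted p = 0.526).

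Factors that hold Ciita at the promoter varied less. Of 10 tested genes of class II transcription and turnover, Ciita included, 7 were negative at day 3 with a median of -0.21, and 0 passed. Rfxank, a subunit of the RFX complex that binds the X box, had a log2 difference of -0.83 (SE 0.385, edgeR adjusted p = 0.458). Creb1, which binds the X2 box, had -0.28, and Rfx5, of the same complex as Rfxank, had -0.39. Class I genes, which present peptides from inside the cell, had a median of -0.27 over 10 genes, with 8 negative and 0 passing. Psmb9, an immunoproteasome subunit, stood at 29.5, 20.1, 20.5 and 26.5 CPM in sham and 8.01, 7.16, 11.96, 9.15 and 17.4 CPM at day 3, without overlap. Its log2 difference was -1.17 (SE 0.378, edgeR adjusted p = 0.403). Psmb8, another immunoproteasome subunit, had a log2 difference of -0.35. Nlrc5, the class I counterpart of Ciita, had -0.53, and the class I heavy chains H2-K1 and H2-D1, named after their values were seen, had 0.01 and 0.19.

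Interferon gamma is the main inducer of Ciita outside professional antigen-presenting cells. Of its pathway's 13 tested genes, 8 were negative at day 3 (median -0.21), and 0 passed; Ifng had no values per library. Ifngr1, a chain of the interferon gamma receptor, had a positive log2 difference of 0.44 (SE 0.199, edgeR adjusted p = 0.45). Irf1, the factor between interferon gamma and Ciita, had a log2 difference of -0.63 (SE 0.203), the GTPase gene Igtp -0.88 (SE 0.297) and the chemokine gene Cxcl9 -0.95 (SE 0.483), with edgeR adjusted p of 0.403, 0.403 and 0.482. Cxcl9 stood at 35.1, 18.2, 20.2 and 27.4 CPM in sham and at 7.86, 9.297, 9.49, 6.63 and 32.02 CPM at day 3. Its 4 low day 3 libraries were those with low class II. That match did not hold at day 7, where it stood at 4.35, 14.75 and 7.22 CPM. All of these lay below sham, library 2 with its class II inside the sham range included. Day 7 libraries all below sham were found for 4.07% of all genes.

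Lists of dendritic cell markers differed in direction. Among 8 tested genes of type 1 conventional dendritic cells 7 were negative at day 3 (median -0.38), among 7 of type 2 and monocyte-derived cells 4 (median -0.93), among 6 of plasmacytoid cells 2 (median 0.32) and among 7 of mature migratory cells 3 (median 0.015). In each of these lists 0 genes passed. Bst2, which plasmacytoid cells and interferon-exposed cells express, stood at 24.96 to 72.2 CPM in sham and at 66.4 to 115 CPM at day 3 (log2 difference 1.18, edgeR adjusted p = 0.403), while Spib, a factor of plasmacytoid and B cells, had -3.15. Among genes of all conventional dendritic cells, which other cells of fat also express, Id2 had 0.87 and Dpp4 -0.87. Irf4, of type 2 dendritic cells and adipocytes, had 1.46, with 705 CPM in day 3 library 4 and 32.8 to 118 CPM in the other day 3 libraries. In sham Irf4 stood at 229 CPM in library 3 and at 14.2 to 18.5 CPM in the others. Itgax had -0.95. Clec10a, a lectin of type 2 dendritic cells and of macrophages, stood at 80.4 to 105 CPM in sham and at 260.5, 190, 123, 188 and 55.5 CPM at day 3 (log2 difference 0.82, edgeR adjusted p = 0.458). Mgl2, a related lectin, stood at 9.63 to 25.2 CPM in sham and at 7.51, 2.69, 2.17, 5.87 and 29.3 CPM at day 3. Day 3 libraries 1 to 4 lay above all sham libraries in Clec10a and below them in Mgl2, and library 5 the reverse. Cxcl12, a stromal chemokine, stood at 176 to 358 CPM in sham and at 95.7 to 157 CPM at day 3, without overlap (log2 difference -0.92, edgeR adjusted p = 0.403). Flt3l, the ligand of Flt3, stood at 7.46 to 13.3 CPM in sham and at 3.29, 4.71, 2.62, 3.46 and 10.9 CPM on day 3 (log2 difference -0.99, SE 0.432, edgeR adjusted p = 0.444).

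Markers of other class II cells were set beside the members. Summed B cell genes were low in the libraries low in class II. Of them, 8 of 8 tested were negative at day 3 (median -2.71), and 0 passed. The defining genes Pax5 and Cr2 had no values per library, and Cd79a, of the B cell receptor, was at 0 counts in day 3 libraries 1, 3 and 4. Leaving out Ebf1, which adipocyte precursors also express, the 7 other B cell genes summed to 19.1 to 172 CPM in sham, to 12.5, 5.50, 3.96, 7.45 and 143 CPM at day 3, and to 4.35, 338 and 59.1 CPM at day 7. Most of that sum was Ighm, the mu heavy chain, at 139 CPM in day 3 library 5 and 335 CPM in day 7 library 2. Without Ighm as well, the 6 others summed to 3.52 to 35.5 CPM in sham and to 0.429, 0.734, 1.79, 1.64 and 4.64 CPM at day 3. At day 7 that sum was 1.51, 2.91 and 5.12 CPM, so library 2 lay below every sham library. The part of B cells in the class II levels was not tested.

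Macrophage genes had another order of libraries. Of 15 tested, 4 were negative at day 3 (median 0.13), and 0 passed. Their summed level was 1293 to 2654 CPM in sham, 1085 to 2704 CPM at day 3 and 1133 to 4688 CPM at day 7, and the lowest day 3 and day 7 libraries were library 5 and library 2, the highest in class II. Gpnmb and Trem2, of lipid-associated macrophages, had log2 differences of 1.33 and 0.94 at day 3 (edgeR adjusted p = 0.468 and 0.482). Cd68, a lysosomal protein of macrophages, stood at 187, 209, 265, 264 and 27.2 CPM at day 3 and at 40.04 to 152 CPM in sham. The 5 pan-leukocyte genes summed to 243 to 583 CPM in sham, 178 to 576 CPM at day 3 and 196 to 813 CPM at day 7. Adipocyte genes were 4 negative and 4 positive of 8 at day 3 (median -0.12), with 0 passing. Adipoq stood at 909 to 1502 CPM in day 3 libraries 1 to 4 and at 4331 CPM in library 5. Plin1 was likewise highest of day 3 in library 5, at 1807 CPM against 562 to 851 CPM in the others. Fabp4 (10450 CPM) and Pnpla2 (2659 CPM) were lowest of day 3 in library 5. The 8 genes summed to 25860 CPM in library 5 and to 21990 to 30970 CPM in the other day 3 libraries. Of other lists, 7 of 8 mesothelial genes (median -0.55), 6 of 6 proliferation genes (median -2.44) and 4 of 4 hepatocyte genes (median -5.98) were negative at day 3 against sham, with 0 passing. Sham library 4 holds most of the hepatocyte signal. The proliferation genes summed to 485, 165, 22.6 and 40.04 CPM in sham and to 13.6 to 75.3 CPM at day 3, so sham libraries 3 and 4 lay inside the day 3 range. The part of cell composition in these levels was not tested.

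**Figure D5:**
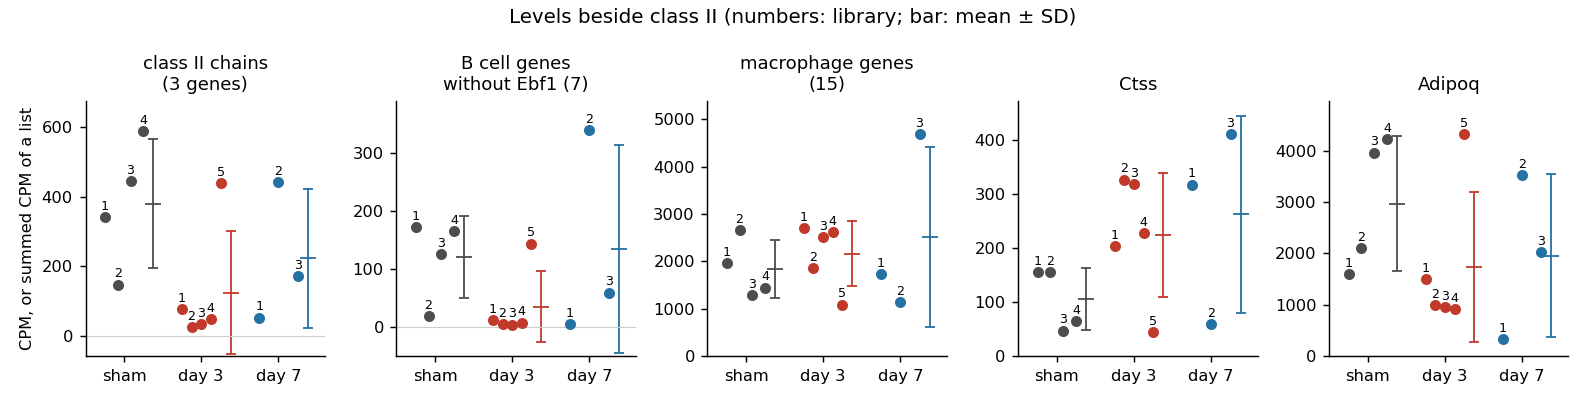
Summed CPM of the 3 class II chain genes, of 7 B cell genes and of 15 macrophage genes, and CPM of Ctss and Adipoq, in each library (numbers are libraries, bars are mean ± SD, linear axes). Day 3 library 5 and day 7 library 2 are high in class II, in the B cell sum (mostly Ighm) and in Adipoq and are the lowest of their groups in macrophage genes and Ctss.

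The genes most like class II were found by the Pearson correlation of log2 CPM with the mean standardised level of Cd74, H2-Aa, H2-Ab1 and H2-Eb1 over the 12 libraries, among genes that are neither members nor predicted models and have a mean of at least 1 CPM. This is a ranking over libraries of bulk tissue, whose cell composition was not measured, and is given without a test. The 8 highest were Col6a6 (0.971), Syne1 (0.962), Zfta (0.961), Pwwp3a (0.958), Rsrp1 (0.958), Ighm (0.957), Cd209c (0.956) and Syp (0.954). Col6a6, a collagen VI chain, stood at 33.5, 13.8, 43.03 and 45.1 CPM in sham, at 4.29, 0.979, 1.05, 4.58 and 51.3 CPM at day 3 and at 1.26, 43.8 and 20.5 CPM at day 7. On the same measure Ciita had 0.949, Siglech 0.860, Batf3 0.559, Flt3 0.228, Zbtb46 0.182 and Irf8 -0.574.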

How the data were processed

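The authors deposited 1 gene table for 12 bulk RNA libraries. Partek, STAR, DESeq2 and build mm39 are named, per the submitters' processing notes, and their roles, versions and settings are not given in the sources used here. It holds expected counts, raw per the file headers, a block of normalized count signal made by the authors, and the authors' p-values and log2 ratios for each day against sham. The labels name polyA RNA and the series design total RNA, and strandedness is not stated, so reads of overlapping or antisense genes cannot be separated. Per-library values fill 18086 lines, of which 21 stand beside their own gene. A line went to the gene with the same deposited arithmetic mean, maximum and geometric mean of normalized signal (relative tolerance 3e-05 for the first pair): 18070 matched 1 gene and 16 were settled by their neighbours, with 0 breaks of order. The 4065 genes without values hold 0.0784% of the signal. Columns of no labelled sample numbered 0.

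After rounding to whole numbers, counts went into edgeR 4.0.16 (R 4.3.3; quasi-likelihood F-test, robust, TMM, filterByExpr with a minimum count of 10, 17012 genes) in 1 fit of all libraries. Adjusted p-values are Benjamini-Hochberg over all genes tested, with a threshold of 0.05. Alternatives used DESeq2 1.42.0, limma 3.58.1 and other settings, 22 in all. The members and the gene lists were chosen with earlier results of these data known. All members are described; for each list the rule allows at most 4 genes, those of smallest day 3 p whose mean reaches 1 CPM, and defining markers near 0; not all of these are printed. Ctss, Ctsb, Ctsd, Lgmn, Ifi30, H2-DMa, Ighm, H2-K1, H2-D1, Ccl21a and Bcl6 were named after their values were seen.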

Additional observations from a re-analysis of the deposited data

Results flagged for a closer look

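Among 66 groups of 4 or 5 libraries tested by Dixon's criterion for the members and for the summed marker lists, 13 had a library past the 95% critical value. For normally distributed values chance flags about 1 in 20 groups. That distribution was not checked for these CPM levels and sums, so the share that chance would flag here is not known. The groups are not independent, since the class II genes and their sum vary together and the B cell sums share genes, so the 13 are not a count of separate events. Day 3 library 5 was that library in 9 of the 13. It stood at 363 CPM of Cd74, 174 CPM of H2-Aa, 140.2 CPM of H2-Ab1, 124 CPM of H2-Eb1 and 8.29 CPM of Ciita. It also stood apart in the summed class II chains (439 CPM), the summed B cell genes (305 CPM with Ebf1, 143 CPM without, of which 139 CPM is Ighm) and the summed genes of lymph node stroma and germinal centres (175 CPM, of which Ccl21a is 85.2 and Bcl6 80.8 CPM). Without Ebf1 and Ighm the B cell sum was 4.64 CPM and was not past the critical value. Others of the lymph node list went both ways. Ccl19 was highest of day 3 in library 5, at 4.64 CPM against 0 to 0.587 CPM in the others. Madcam1 (0 CPM) was lowest of day 3 there, and so was Cxcl13 (4.24 CPM, close to 4.335 CPM in library 3).

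In sham, library 1 stood apart in Flt3 (2.70 CPM) and library 4 in summed hepatocyte genes (2920 CPM). At day 3, library 4 stood apart in the summed genes of type 2 and monocyte-derived dendritic cells (1036 CPM, of which 705 CPM is Irf4), and library 3 was low in T and NK cell genes (1.12 CPM).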

How the results depend on the processing

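Over the 3 comparisons, 0 members passed in each of the 22 alternatives run (Flt3 was tested at day 3 in 20 of them). The direction of Cd74, H2-Aa, H2-Ab1, H2-Eb1, Ciita, Batf3, Zbtb46, Siglech and Irf8 at day 3 was the same in all 22. At day 3 the log2 difference of Cd74 ran from -3.06 to -1.35 with 1 library left out and was -2.59 with voom, where the adjusted p of 0.0939 was the lowest of any alternative (highest 0.897). Flt3 turned at day 3 under the replicate block (-0.63) and without day 3 library 3 (-0.79). With 1 library left out it ran to 2.44. At day 7 against sham Flt3 turned without sham library 1 (1.70), without day 7 library 1 (0.49) or 2 (0.046) and with voom (1.59), with -1.45 as its lowest with 1 library left out. Batf3 turned without sham library 1 (0.082; lowest -0.85) and Siglech under the replicate block (0.073). Between the days, leaving out day 7 library 2 turned H2-Aa (-0.13), H2-Ab1 (-0.067), H2-Eb1 (-0.27) and Ciita (-0.14), whose highest values, without day 3 library 5, were 2.28, 2.32, 2.46 and 3.32. There, Zbtb46 turned without day 3 library 2 (0.045) and without day 7 library 3 (0.11; lowest -0.26), and Flt3 turned without day 3 library 3 (0.66; lowest -2.07), under the replicate block (0.0054) and with voom (1.51). The cause of these turns was not tested.

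Genes called at day 3 numbered 1, 0 to 2 with 1 library left out, 0 under the replicate block, 0 without sham library 4 and day 3 library 1, 121 with DESeq2 and 0 with voom. At day 7 against sham they numbered 0, 0 to 3 with 1 library left out, 68 with DESeq2 and 15 with voom, and between the days 0, 0 to 4 with 1 library left out, 22 with DESeq2 and 2 with voom. The highest of these ranges came without day 7 library 1. Deviations of libraries with the same replicate number correlated at -0.37 to 0.19 across genes. Libraries with different numbers were not compared in this way, so these values cannot decide whether the numbers pair samples. Under the replicate block Cd74 had a log2 difference of -2.96 at day 3 (edgeR adjusted p = 0.202). Scaling by total counts alone moved the median of all genes to -0.13 at day 3 and left 8 members negative. Low counts limit Flt3, Siglech, Batf3 and Ciita.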
